A study of Homo sapiens with 4 samples.

Results

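The TNF and TRAIL receptor family was examined in RNA-seq of the human leukemia cells labelled NB4, through 10 receptor genes chosen by symbol from the deposited expression table. Its unit is FPKM, a fragment count corrected for the length of the gene and the depth of the library. All 10 had a row among the 28412 genes. They were TNFRSF1A, TNFRSF10A, TNFRSF10B, TNFRSF21 and FAS, whose proteins carry a death domain, and TNFRSF1B, TNFRSF10D, TNFRSF12A, TNFRSF14 and LTBR, which lack a complete one. There were 4 libraries. The control shRNA vector sh-NC was present in the cells of 2 libraries, and sh-LDB1, an shRNA vector against LDB1, in those of the others. The methods of the study describe lentiviral shRNA vectors and selection with puromycin, so all cells compared had been transduced. Of the 3 LDB1 shRNAs described there, the one sequenced is not identified by the labels, nor is it said whether the 2 libraries of a group came from separate cultures. The p-values therefore measure only the spread between these samples, which may be technical.

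Receptors of the TNF superfamily are membrane proteins that cluster when they bind a trimeric ligand. Those with a cytoplasmic death domain recruit the adaptors TRADD or FADD and can activate caspase-8, the protease that starts extrinsic apoptosis. Those without one bind TRAF proteins directly and signal mainly to NF-kB and MAP kinases. TRAIL is a ligand that kills many leukemia cells in culture through its death receptors, while the decoy receptors bind it without passing on a complete death signal.

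LDB1, the adaptor of the LMO2 complex, was lower in both sh-LDB1 libraries, at 10.3 and 9.48 FPKM against 135 and 120 FPKM in sh-NC. Its log2 fold change was -3.56 (SE 0.0765, n = 2 per group, adjusted p = 6.93e-05 by limma with the Benjamini-Hochberg adjustment), and 7.73% of the control level was left. The recovered depth lay between 14782662 and 17182557 reads per library. The labelled cell type was checked against its markers. Among the granulocytic genes, ELANE was at 0 in 3 libraries and at 0.182 FPKM in the other. MPO had no row under that symbol and so has no value here. The 10 of 14 granulocytic genes with a row summed to 13.5 and 11.96 FPKM in sh-NC and to 42.2 and 38.5 FPKM in sh-LDB1. LYZ was the highest of them. Of the 6 granulocytic genes tested, 3 were higher in sh-LDB1 by an adjusted p below 0.05 and a fold change above 2. None was lower by a fold change below 0.5 (9.5% and 10.3% of all genes tested). The 16 erythroid genes summed to 4189 and 4374 FPKM in sh-NC and to 390 and 354 FPKM in sh-LDB1. Among them the embryonic globin HBZ fell from 1543 and 1600 FPKM to 58.9 and 61.3 FPKM. EPB42 was the lowest of them, with at most 0.803 FPKM. Of the 6 monocyte genes 4 had a row and summed to between 0.272 and 0.881 FPKM, with CD14 at most at 0.350 FPKM and VCAN at most at 0.00891 FPKM. The 5 lymphoid genes with a row summed to 24.3 and 21.9 FPKM in sh-NC and to 47.7 and 50.6 FPKM in sh-LDB1, of which CD3D gave most and CD79A, the lowest, at most 0.457 FPKM. These marker levels moved with the groups, and their part in the receptor results was not tested. In RNA from bulk cells, fewer cells of a type and less RNA per cell cannot be told apart.

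Knockdown of LDB1 came with higher transcript levels of the TRAIL receptor TNFRSF10B and the TNF receptor TNFRSF1A, each about 4-fold, and of the TWEAK receptor TNFRSF12A, about 2-fold. The other TRAIL death receptor with a measurable level, TNFRSF10A, moved the opposite way and was left at 57.9% of its control level. A gene was tested when its mean over the 4 libraries was at least 1 FPKM, and 8 of the 10 receptors passed, each of them with at least 1 FPKM in every library. FAS and TNFRSF10D did not pass. By an adjusted p below 0.05 and a fold change above 2 on the scale of log2(FPKM + 1), 3 receptors were higher in sh-LDB1, where 9.5% of all 13300 genes tested were. TNFRSF14 did not pass on this scale, though the ratio of its mean FPKM was 2.07. No receptor was lower by a fold change below 0.5, where 10.3% of all genes were. At any size and an adjusted p below 0.05, 5 receptors were higher and 2 lower, against 29.9% and 37.4% of all genes. The groups did not overlap for 5 receptors higher and 2 lower of the 8 tested, where they did not overlap for 38.3% and 46.3% of all genes tested. The median log2 fold change was 0.66 over the 8 receptors and -0.08 over all genes tested.

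**Figure D1:**
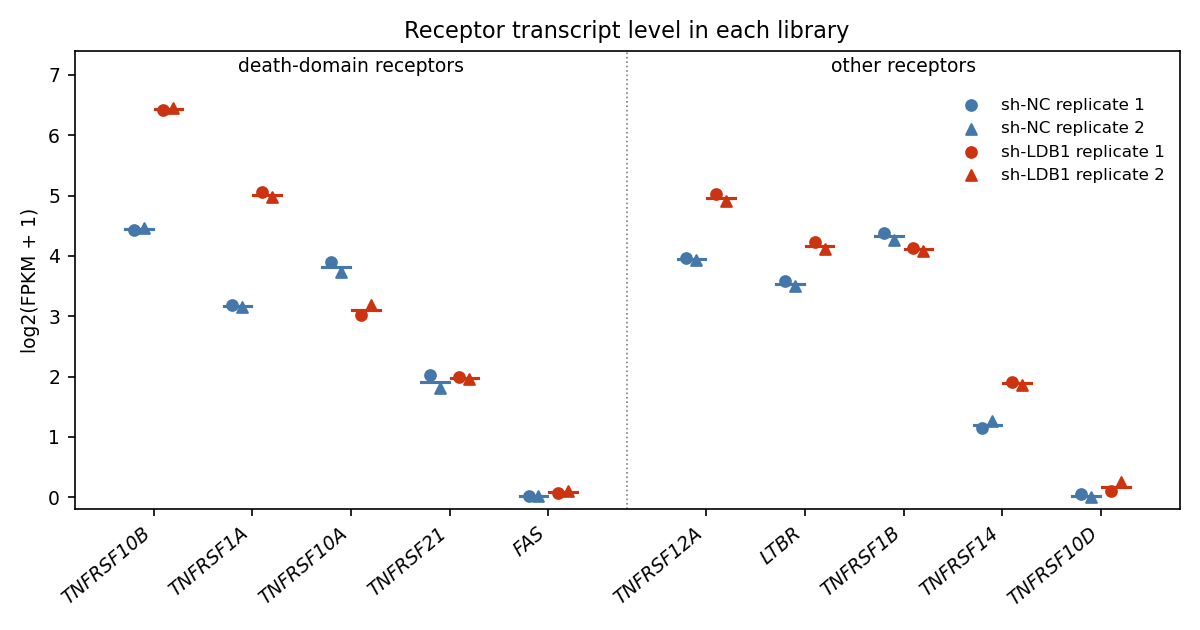
Transcript level of the 10 receptors in each of the 4 libraries, as log2(FPKM + 1) on the vertical axis, with a short bar at the mean of the 2 libraries of a group. TNFRSF10B, TNFRSF1A, TNFRSF12A, LTBR and TNFRSF14 sit higher in both sh-LDB1 libraries, TNFRSF10A and TNFRSF1B sit lower, TNFRSF21 overlaps, and FAS and TNFRSF10D lie close to 0.

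TNFRSF10B (DR5), a TRAIL receptor with a death domain, had 20.6 and 21.0 FPKM with sh-NC and 84.9 and 86.8 FPKM with sh-LDB1. Both sh-LDB1 libraries were far above both sh-NC libraries, and the replicates of a group lay close together. The mean rose from 20.8 ± 0.241 to 85.9 ± 1.32 FPKM (SD, n = 2 each), a ratio of 4.13. On the log2 scale the change was 1.99 (SE 0.0401, 95% interval 1.89 to 2.10, adjusted p = 6.77e-05 by limma). The values rest on 1723 and 1596 recovered reads with sh-NC and on 7019 and 6775 with sh-LDB1. In both groups it was the most abundant of the 10 receptors per length.

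TNFRSF10A (DR4), the other TRAIL receptor with a complete death domain, had 14.0 and 12.3 FPKM in sh-NC and 7.13 and 8.09 FPKM in sh-LDB1. Its groups were apart in the opposite direction, and the spread between its replicates was wider than for TNFRSF10B. The mean fell from 13.1 ± 1.18 to 7.61 ± 0.676 FPKM (SD, n = 2 each), a log2 fold change of -0.72 (SE 0.0921, 95% interval -0.96 to -0.47, adjusted p = 0.00266 by limma). The fall did not reach the fold threshold of 0.5. Within each library, the level of TNFRSF10B was 1.48 and 1.71 times that of TNFRSF10A in sh-NC, and 11.9 and 10.7 times in sh-LDB1. The ratio was thus higher in both knockdown libraries, and the 95% intervals of the 2 changes were far from each other. With 2 libraries against 2, an exact permutation test of a single ratio cannot give a two-sided p below 0.333.

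TNFRSF10D, the decoy for TRAIL with a truncated death domain, was barely detected. It was at 0.0349 and 0 FPKM with sh-NC and at 0.0706 and 0.187 FPKM with sh-LDB1, which are 2, 0, 4 and 10 recovered reads. It was not tested at the filter used, and without a filter on low values its log2 fold change was 0.15 with an adjusted p of 0.189 by limma. Another decoy, TNFRSF10C, which is anchored in the membrane by a lipid, had 0 and 0.0726 FPKM in sh-NC and 0.134 and 0.177 FPKM in sh-LDB1. TNFRSF10C was not tested.

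The receptors for TRAIL named above lie side by side on chromosome 8 in GENCODE release 44 on GRCh38. TNFRSF10B (chr8:23020133-23069031), TNFRSF10D (chr8:23135588-23164027) and TNFRSF10A (chr8:23190452-23225102) are on the minus strand, TNFRSF10C (chr8:23102921-23117445) lies between the first pair on the plus strand, and the whole stretch spans 204970 bases. The genes of the stretch did not all move together, since TNFRSF10B rose and TNFRSF10A fell. The decoys between them stayed near 0 and were not tested at the filter used, so no direction is read from them. On the side of TNFRSF10B, the neighbour RHOBTB2 had 0.535 and 0.598 FPKM in sh-NC and 2.41 and 2.38 FPKM in sh-LDB1 (log2 fold change 1.12, adjusted p = 0.00144 by limma), and it reached the filter only through sh-LDB1, so it had to be higher to be tested. On the side of TNFRSF10A, CHMP7 rose from 9.09 and 8.60 to 15.9 and 16.0 FPKM (log2 fold change 0.78, adjusted p = 0.000381 by limma). R3HCC1, the next gene, had 16.2 and 14.7 FPKM in sh-NC and 16.5 and 16.3 FPKM in sh-LDB1, with a log2 fold change of 0.08 (adjusted p = 0.308 by limma). RHOBTB2 shares 7.52% of the exon bases of TNFRSF10B on the opposite strand, and 2 antisense transcripts share 9.09% and 7.65% of those of TNFRSF10A. The use of strand in the counting is not given in the sources used here, so reads from these overlaps cannot be assigned.

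TNFRSF1A (TNFR1), the widely expressed TNF receptor with a death domain, had 8.09 and 7.89 FPKM in sh-NC and 32.2 and 30.5 FPKM in sh-LDB1. Both knockdown libraries were above both controls, with a gap much wider than the spread within a group. The mean rose from 7.99 ± 0.138 to 31.4 ± 1.20 FPKM (SD, n = 2 each), a ratio of 3.93, and the log2 fold change was 1.85 (SE 0.0512, 95% interval 1.71 to 1.99, adjusted p = 8.31e-05 by limma). The recovered reads were 524 and 466 with sh-NC and 2067 and 1849 with sh-LDB1.

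TNFRSF1B (TNFR2), the TNF receptor without a death domain that is found mainly on blood and endothelial cells, had 19.8 and 18.3 FPKM in sh-NC and 16.6 and 15.9 FPKM in sh-LDB1. Both sh-LDB1 libraries were lower than both controls, by a narrow gap. The mean went from 19.1 ± 1.09 to 16.2 ± 0.538 FPKM (SD, n = 2 each), with a log2 fold change of -0.22 (SE 0.0605, 95% interval -0.38 to -0.06, adjusted p = 0.0300 by limma). This call was not firm. When each library was scaled to the same summed FPKM, which moved the median of all genes tested by 0.14 on the log2 scale, the value became -0.06 with an adjusted p of 0.447, and it was also lost under 4 other settings and without 3 of the 4 libraries in turn. Within a library, TNFRSF1A was at 0.408 and 0.431 times the level of TNFRSF1B in sh-NC and at 1.94 and 1.93 times in sh-LDB1. The order of both TNF receptors was therefore exchanged between the groups, in both libraries of each.

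The promoters of the TNF receptors and of the lymphotoxin receptor are shown because TNFRSF1A and LTBR rose and lie near each other on chromosome 12, whereas TNFRSF1B did not rise. Each run is the RefSeq reference on GRCh38.p14, 250 bases before and 50 after the annotated start, 5′ to 3′ on the strand of the gene, with every CG in capitals.
TNFRSF1A (chr12:6342027-6342326, minus strand): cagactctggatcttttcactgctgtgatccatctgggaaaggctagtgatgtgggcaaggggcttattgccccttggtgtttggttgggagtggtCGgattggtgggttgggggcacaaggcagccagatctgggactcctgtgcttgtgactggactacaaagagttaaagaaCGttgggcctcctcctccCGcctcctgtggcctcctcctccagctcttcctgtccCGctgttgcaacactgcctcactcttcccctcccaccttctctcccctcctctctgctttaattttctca
TNFRSF1B (chr1:12166741-12167040, plus strand): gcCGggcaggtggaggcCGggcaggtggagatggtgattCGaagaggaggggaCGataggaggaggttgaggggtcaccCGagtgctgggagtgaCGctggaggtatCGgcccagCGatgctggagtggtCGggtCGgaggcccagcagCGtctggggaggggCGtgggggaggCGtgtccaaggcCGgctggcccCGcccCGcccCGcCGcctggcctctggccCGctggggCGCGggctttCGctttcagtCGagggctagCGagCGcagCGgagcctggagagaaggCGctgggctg
LTBR (chr12:6383912-6384211, plus strand): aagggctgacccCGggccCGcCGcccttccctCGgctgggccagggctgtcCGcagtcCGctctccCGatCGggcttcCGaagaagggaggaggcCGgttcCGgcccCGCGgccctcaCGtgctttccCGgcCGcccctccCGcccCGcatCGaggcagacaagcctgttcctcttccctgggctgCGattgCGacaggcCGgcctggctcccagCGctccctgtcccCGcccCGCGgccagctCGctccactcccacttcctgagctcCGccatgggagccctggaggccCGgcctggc
TNFRSF1A has 4 CG in this window and 55.7% GC, TNFRSF1B 27 and 72.0%, and LTBR 29 and 74.3%, where the median over 35116 RefSeq promoters of this length was 14 CG and 58.7% GC. A promoter was matched for 6 of the 10 receptors, the others being TNFRSF14, TNFRSF21 and FAS. FAS had 3 promoter entries, of which only the first was searched. On both strands, AGATAA, the GATA-type sequence, was in none of the 6 and in 10.3% of all promoters. TGANTCA, the AP-1-type sequence, was in that of FAS alone, with its first base at position -242 from the start, and in 7.71% of all promoters. The NF-kB consensus was in that of TNFRSF14 alone, in overlapping matches with first bases at positions -86 to -84, and in 11.3% of all promoters. These matches describe the letters of the windows only.

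TNFRSF21 (DR6), a death-domain receptor known from neurons and lymphocytes, had 3.08 and 2.49 FPKM in sh-NC and 2.97 and 2.89 FPKM in sh-LDB1. The sh-LDB1 libraries fell between both controls, so the groups overlapped. The log2 fold change was 0.06 (SE 0.107, 95% interval -0.23 to 0.34, adjusted p = 0.658 by limma), and it turned to -0.05 without sh-NC replicate 2. A change of more than 0.34 on the log2 scale in either direction lies outside that interval.

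FAS, the receptor of FAS ligand and the prototype of the death receptors, was at 0.0145 and 0.0159 FPKM with sh-NC and at 0.0440 and 0.0777 FPKM with sh-LDB1. Both sh-LDB1 values were above both controls, but all were close to the limit of detection. The values come out as 7, 7, 21 and 35 recovered reads over an exon length of 29771 bases, or as 1, 1, 3 and 5 over 4253 bases, and FPKM alone cannot tell these apart. FAS was not tested at the filter used, and without a filter its log2 fold change was 0.06 with an adjusted p of 0.252 by limma. FAS ligand, listed as FASLG, had no row under that symbol and so has no value here.

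Among the receptors without a complete death domain, TNFRSF12A (Fn14), the receptor of TWEAK, had 14.6 and 14.2 FPKM in sh-NC and 31.7 and 29.0 FPKM in sh-LDB1. Both knockdown libraries were above both controls, without overlap. The mean rose from 14.4 ± 0.268 to 30.3 ± 1.90 FPKM (SD, n = 2 each), with a log2 fold change of 1.02 (SE 0.0598, 95% interval 0.86 to 1.18, adjusted p = 0.000278 by limma). The estimate sat at the fold threshold, and without sh-LDB1 replicate 1 it was 0.96, which left 2 receptors past the threshold in place of 3. TNFSF12, the gene of TWEAK, was at 0.0658 and 0.108 FPKM with sh-NC and at 0 and 0.0352 FPKM with sh-LDB1.

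LTBR, the lymphotoxin beta receptor, which signals to the alternative NF-kB pathway, had 11.0 and 10.3 FPKM in sh-NC and 17.8 and 16.2 FPKM in sh-LDB1. Both knockdown libraries were above the controls, by a ratio of the means of 1.60 (10.6 ± 0.445 to 17.0 ± 1.13 FPKM, SD, n = 2 each). The log2 fold change was 0.63 (SE 0.0674, 95% interval 0.45 to 0.81, adjusted p = 0.00149 by limma). The GENCODE spans of LTBR (chr12:6375045-6391571, plus strand) and TNFRSF1A (chr12:6328757-6342114, minus strand) lie 32930 bases apart, and the RefSeq start of LTBR behind the promoter shown above lies inside that LTBR span. SCNN1A, the epithelial sodium channel gene between them, was at 0.0105 and 0.0577 FPKM with sh-NC and at 0.202 and 0.247 FPKM with sh-LDB1, and CD27, a further receptor of the family on the far side of LTBR, was at 0.0438 and 0.0481 FPKM and at 0.133 and 0.187 FPKM. SCNN1A shares 6.86% of the exon bases of LTBR on the opposite strand. Of the stretches of 50 bases in LTBR transcripts, 3.90% also occur in other genes, against at most 1.03% for the other 9 receptors, so its reads are the least certain of the set in this respect.

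TNFRSF14 (HVEM), which binds both the TNF family ligand LIGHT and the inhibitory receptor BTLA, was the lowest of the receptors tested. It had 1.21 and 1.40 FPKM in sh-NC and 2.77 and 2.63 FPKM in sh-LDB1, with no overlap between the groups. The ratio of the means was 2.07 (1.30 ± 0.130 to 2.70 ± 0.103 FPKM, SD, n = 2 each), and the log2 fold change was 0.68 (SE 0.103, 95% interval 0.41 to 0.96, adjusted p = 0.00443 by limma). At this low level the added 1 FPKM compresses the change, and with a pseudocount of 0.01 FPKM it was 1.05, past the fold threshold. The antisense transcript TNFRSF14-AS1 shares 13.3% of its exon bases.

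**Figure D2:**
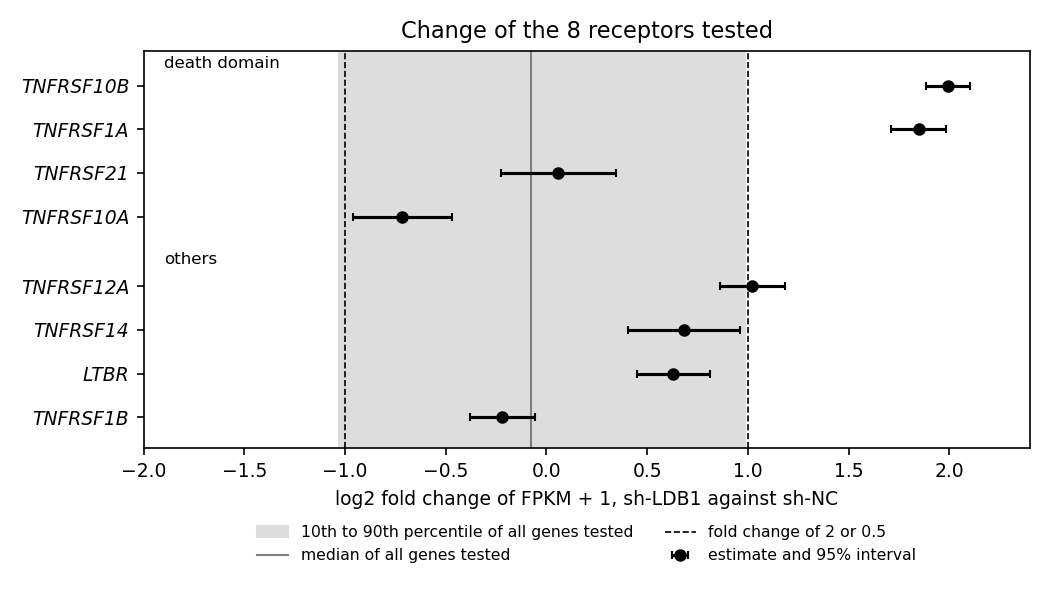
Log2 fold change of FPKM + 1 in sh-LDB1 against sh-NC (horizontal axis) for the 8 receptors tested, as the limma estimate with its 95% interval, beside the 10th to 90th percentile of all 13300 genes tested in grey. TNFRSF10B and TNFRSF1A lie beyond that band at 1.99 and 1.85, TNFRSF12A lies at its edge at 1.02, and the other receptors lie inside it.

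The death-domain receptors did not move as a class. Of the 4 tested, 2 rose past the fold threshold (TNFRSF10B and TNFRSF1A), 1 fell by less (TNFRSF10A) and 1 did not pass (TNFRSF21). Of the 4 others tested, 1 rose past the fold threshold (TNFRSF12A), 2 rose by less (TNFRSF14 and LTBR) and 1 fell by less (TNFRSF1B). The place of TNFRSF14 depended on the added 1 FPKM, since the ratio of its mean FPKM was 2.07. The median log2 fold change was 0.95 in the death-domain receptors and 0.66 in the others, a difference of 0.30 that is given with no test, since receptors are not replicates of a class. The difference turned to -0.57 when no filter on low values was set, which brings in FAS and TNFRSF10D, so no direction between the classes can be read from it.

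The make-up of the receptor transcripts differed between the groups, with a larger part taken by TNFRSF10B in the knockdown. The 10 receptors summed to 92.4 and 87.9 FPKM in sh-NC and to 196 and 192 FPKM in sh-LDB1. TNFRSF10B alone made up 22.3% and 23.9% of this sum with sh-NC and 43.3% and 45.2% with sh-LDB1. The death-domain receptors made up 49.6% and 49.7% of it with sh-NC and 64.9% and 66.8% with sh-LDB1, and without TNFRSF10B they still summed to more in the knockdown, 42.4 and 41.6 FPKM against 25.1 and 22.7 FPKM. The others summed to 46.6 and 44.2 FPKM in sh-NC and to 68.9 and 63.9 FPKM in sh-LDB1. By level per length, the order in sh-NC was TNFRSF10B, TNFRSF1B, TNFRSF12A, TNFRSF10A, LTBR, TNFRSF1A, TNFRSF21 and TNFRSF14, with no overlap between neighbours, followed by TNFRSF10D and FAS, which overlapped. In sh-LDB1 the order was TNFRSF10B, TNFRSF1A, TNFRSF12A, LTBR, TNFRSF1B, TNFRSF10A, TNFRSF21 and TNFRSF14, and then TNFRSF10D and FAS. There the ranges of TNFRSF1A and TNFRSF12A overlapped, as did those of LTBR and TNFRSF1B, and of TNFRSF10D and FAS.

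**Figure D3:**
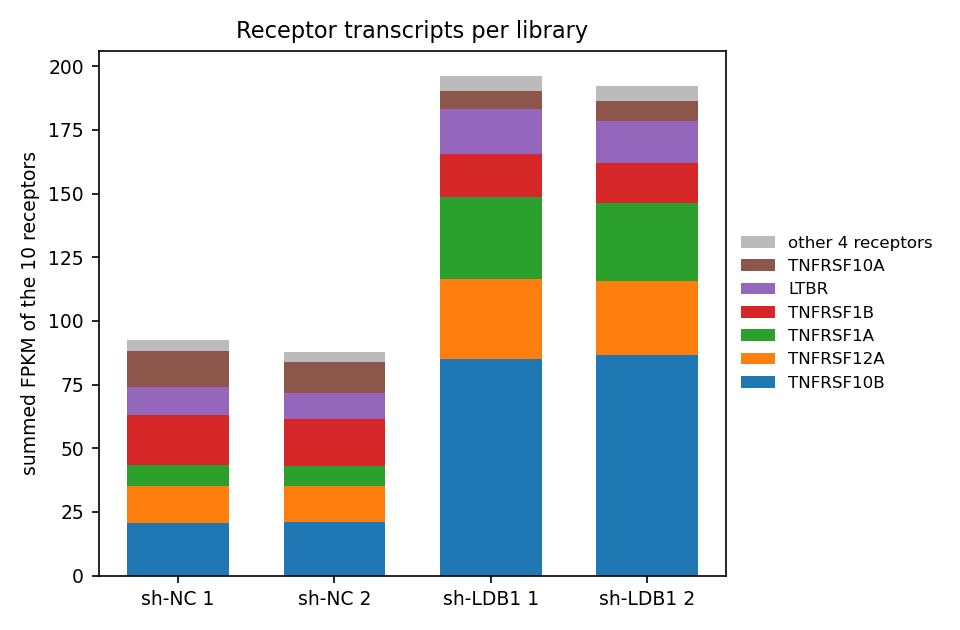
Summed FPKM of the 10 receptors in each library (vertical axis), stacked by gene, with the 4 receptors of lowest mean shown as one block. The bars reach 92.4 and 87.9 FPKM in sh-NC and 196 and 192 FPKM in sh-LDB1, and the TNFRSF10B block takes the largest part of the difference.

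The ligands listed, which cover the whole TNF superfamily, were mostly low. Of 18 listed ligands 12 had a row and 3 were tested, all 3 higher past both thresholds, where 9.5% of all genes were. Of these 3, only TNFSF14 is a ligand of receptors examined here. TNFSF14 had less than 1 FPKM in both sh-NC libraries and passed the filter only through sh-LDB1, so it had to be higher to be tested. TNFSF9, the ligand of the costimulatory receptor 4-1BB, rose from 19.1 and 20.1 to 132.9 and 133.0 FPKM (log2 fold change 2.70, adjusted p = 6.77e-05 by limma). CD70, the ligand of CD27, rose from 0.807 and 1.68 to 7.21 and 8.24 FPKM (log2 fold change 1.98, adjusted p = 0.00148 by limma). TNFSF14 (LIGHT), a ligand of both TNFRSF14 and LTBR, rose from 0.0647 and 0.114 to 2.80 and 2.48 FPKM (log2 fold change 1.74, adjusted p = 0.000677 by limma). The median over the 3 was 1.98.

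TNF, the ligand of TNFRSF1A and TNFRSF1B, was at 0.0737 and 0 FPKM with sh-NC and at 1.56 and 1.18 FPKM with sh-LDB1, which are 2, 0, 42 and 30 recovered reads. It stayed under the filter. With no filter on low values its log2 fold change was 1.19 with an adjusted p of 0.00797 by limma. TNFSF10, the gene of TRAIL, had 3 and 1 recovered reads with sh-NC and 10 and 18 with sh-LDB1, at no more than 0.342 FPKM. LTA and LTB, whose products form the lymphotoxins, had 1, 0, 5 and 4 and 4, 1, 24 and 12 recovered reads in the same order of libraries. These 3 genes were not tested.

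Of 19 other receptors of the family 14 had a row and 3 were tested. TNFRSF9 (4-1BB), the receptor of TNFSF9, had 0.312 and 0.396 FPKM in sh-NC and 1.80 and 1.78 FPKM in sh-LDB1 and rose (log2 fold change 1.04, adjusted p = 0.0031 by limma). TNFRSF8 (CD30), which lies next to TNFRSF1B on chromosome 1, fell from 6.38 and 6.39 to 0.852 and 0.690 FPKM (log2 fold change -2.06, adjusted p = 0.000154 by limma). TNFRSF9 reached the filter only through the sh-LDB1 libraries and TNFRSF8 only through the sh-NC libraries, so each had to differ in that direction to be tested. RELT, the third, rose by 0.63 on the log2 scale, and the median over the 3 was 0.63.

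Of the 11 genes of death signalling downstream of the receptors, all with a row, 9 were tested, 3 higher and 1 lower past both thresholds (9.5% and 10.3% of all genes tested), with a median log2 fold change of 0.69. CASP8, the initiator caspase, rose from 3.37 and 3.88 to 11.15 and 11.98 FPKM (log2 fold change 1.44, adjusted p = 0.000257 by limma). TRADD, the adaptor of TNFRSF1A, rose from 13.2 and 11.2 to 32.0 and 33.4 FPKM (log2 fold change 1.36, adjusted p = 0.000369 by limma). XIAP, an inhibitor of caspases that acts against the death signal, rose alongside them, from 5.77 and 6.35 to 18.0 and 18.8 FPKM (log2 fold change 1.46, adjusted p = 0.000155 by limma). BID, which carries the signal of caspase-8 to mitochondria, fell from 10.1 and 11.0 to 3.85 and 3.70 FPKM (log2 fold change -1.27, adjusted p = 0.000224 by limma).

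The TRAF proteins and kinases that link the receptors to NF-kB went in both directions. Of 16 listed 14 were tested, 4 higher and 6 lower at any size, against 29.9% and 37.4% of all genes tested, with a median log2 fold change of -0.14. TRAF5, among the lower, had 2.16 and 2.41 FPKM in sh-NC and 0.775 and 0.798 FPKM in sh-LDB1. It passed the filter only through sh-NC, so it had to be lower to be tested, and these counts are only a description. TRAF3, which restrains the alternative NF-kB pathway below LTBR and TNFRSF12A, was the 1 past both thresholds and fell from 5.80 and 5.29 to 2.04 and 2.14 FPKM (log2 fold change -1.08, adjusted p = 0.000486 by limma). Of 9 genes whose products attach, remove or bind ubiquitin at the TNF receptor complex, or bridge such proteins, 8 were tested. At any size 7 of them were higher and none lower (29.9% and 37.4% of all genes tested), none past the fold threshold, with a median of 0.51. The most abundant of them were SHARPIN, from 28.5 and 24.9 to 46.1 and 49.4 FPKM (log2 fold change 0.82), and TNIP1, from 21.8 and 23.1 to 34.8 and 35.5 FPKM (log2 fold change 0.63).

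Of 4 genes of receptor shedding 3 were tested, 1 higher and 2 lower at any size (29.9% and 37.4% of all genes tested), none past the fold threshold and with a median of -0.49. The most abundant were ERAP1, which takes part in the shedding of TNFRSF1A, from 14.2 and 14.5 to 9.90 and 9.998 FPKM (log2 fold change -0.49), and ADAM17, the protease that cuts TNF and both of its receptors, from 4.98 and 4.42 to 5.96 and 5.99 FPKM (log2 fold change 0.29).

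The last list held genes known as NF-kB targets. Of 18 listed 17 had a row and 13 were tested, 9 higher past both thresholds and none lower (9.5% and 10.3% of all genes tested), with a median log2 fold change of 1.38. RELB, CXCL2, CXCL8 and PLAU passed the filter only through the sh-LDB1 libraries, so the count includes genes that had to be higher to be tested. By adjusted p, the leading 5 were CXCL8, TNFAIP2, ICAM1, IER3 and RELB. CXCL8, the neutrophil chemokine, rose from 0.380 and 0.417 to 14.1 and 14.4 FPKM (log2 fold change 3.44, adjusted p = 6.77e-05 by limma). IER3, an early response gene, rose from 9.34 and 12.1 to 110.2 and 119.3 FPKM (log2 fold change 3.32, adjusted p = 0.000121 by limma). TNFAIP2, first described as a TNF-induced gene, rose from 7.57 and 8.08 to 62.7 and 64.7 FPKM (log2 fold change 2.87), RELB, a subunit of the alternative NF-kB pathway, from 0.896 and 0.961 to 6.97 and 6.64 FPKM (log2 fold change 2.02), and the adhesion molecule ICAM1 from 9.07 and 9.31 to 35.7 and 35.3 FPKM (log2 fold change 1.84). Over all 7 lists together, 53 of 95 listed genes were tested, 43 with at least 1 FPKM in every library. Of the 53, 16 were higher and 3 lower past both thresholds. These counts include 6 of the higher genes (RELB, CXCL2, CXCL8, PLAU, TNFSF14 and TNFRSF9) that reached the filter only through sh-LDB1, and TNFRSF8 among the lower ones, which reached it only through sh-NC. They are therefore a description and are not read against the 9.5% and 10.3% of all genes tested.

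**Figure D4:**
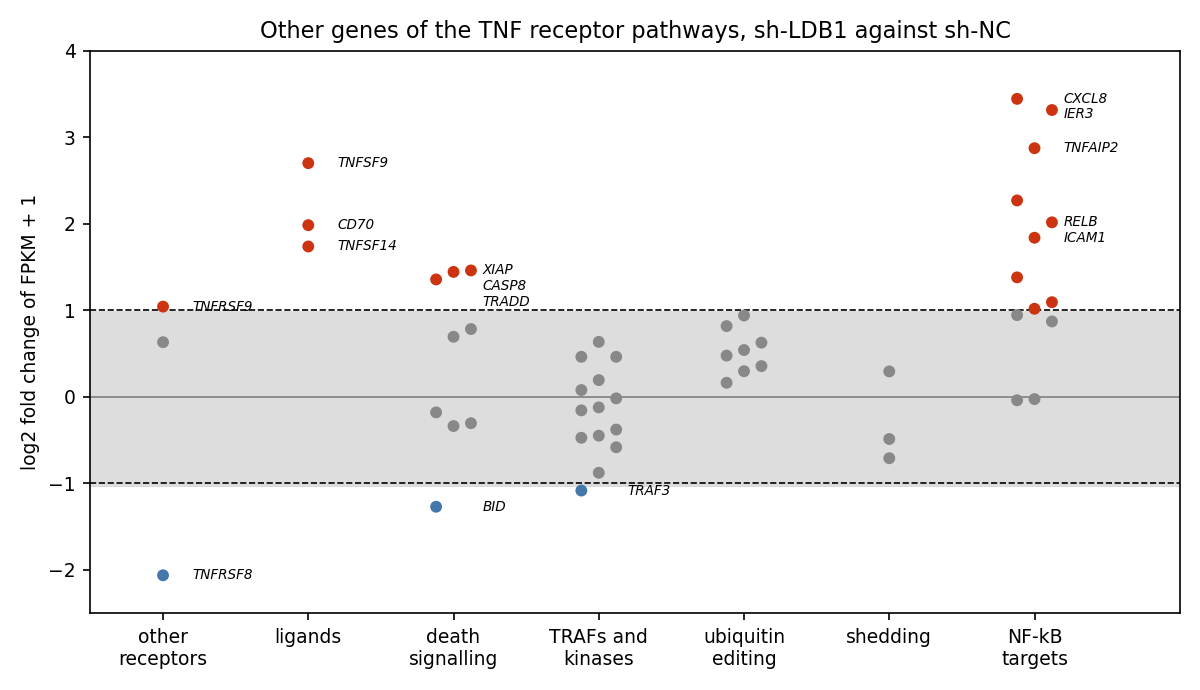
Log2 fold change of FPKM + 1 in sh-LDB1 against sh-NC (vertical axis) for the 53 tested genes of the 7 lists, with genes past both thresholds in red when higher and in blue when lower, and the 10th to 90th percentile of all genes tested in grey. Most points of the NF-kB targets lie above the upper dashed line, which marks a fold change of 2, and those of the TRAFs and kinases lie on both sides of 0.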

How the data were processed

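RNA-seq libraries were made from total RNA of the cells labelled NB4 with an Illumina TruSeq kit. The authors filtered the reads and mapped them with HISAT (HISAT2 2.0.5 and hg38 in the submitters' processing notes), and deposited 1 table of FPKM per gene and library. The annotation, counting tool and use of strand are not given in the sources used here.

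Whole reads were recovered from the FPKM steps with gene lengths fitted near those of GENCODE 44 (28193 of 28412 genes matched). Of the values above 0, 99.47% came within 0.05 of a whole read, a share that the fit of the lengths itself brings about. At annotated lengths, 90.7% of values under 50 reads were whole in genes with a single annotated transcript. Those genes also set the divisor of each library. Since lengths were fitted, these reads are approximate. Depth was 17182557 and 15750678 recovered reads with sh-NC, and 15739427 and 14782662 with sh-LDB1. The totals dividing the deposited FPKM were 0.942, 0.936, 1.02 and 1.02 times these, so the FPKM were not scaled by total reads alone.

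Genes whose mean reached 1 FPKM were compared on log2(FPKM + 1), which understates the change of low genes, with limma 3.58.1 in R 4.3.3 (lmFit, eBayes with a trend, no replicate block), on all 4 libraries. P-values were adjusted over all 13300 genes by Benjamini-Hochberg. A call needed an adjusted p below 0.05 and a fold above 2 or under 0.5. The steps were also run on simulated reads with known changes and the same spread setting for every gene. That setting is simpler than these libraries, so no support is drawn from it. Alternatives changed the pseudocount, filter, scaling, model and libraries. The deviations of same-numbered replicates correlated at 0.0196, so the numbers were not taken to pair the samples.

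The receptors, gene lists and tests were chosen with earlier results of these data known, so no list is independent evidence. Named were all 10 receptors and LDB1. Of each pathway list, the genes past both thresholds were named (the 5 with the smallest adjusted p where more were), or the 2 most abundant where none was. Of the marker lists, the highest and lowest genes were named with MPO, ELANE and HBZ, and a further marker gene of that rule is not reported here. Neighbouring genes and receptor-ligand pairs could be named whatever their values. RELT, TRAF5, CXCL2, CXCL3 and PLAU were added after their values were seen.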

Additional observations from a re-analysis of the deposited data

How the results depend on the processing

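TNFRSF1A, TNFRSF10A, TNFRSF10B, TNFRSF12A, TNFRSF14, LTBR and LDB1 kept their direction and an adjusted p below 0.05 by limma under all 11 alternatives and without each library in turn. Over the 11 alternatives the log2 fold changes lay between 1.99 and 2.16 for TNFRSF10B, 1.85 and 2.01 for TNFRSF1A, -0.79 and -0.56 for TNFRSF10A, 1.02 and 1.19 for TNFRSF12A, 0.68 and 1.05 for TNFRSF14, and 0.63 and 0.79 for LTBR. The number of receptors lower at any size was 2, and it was 1 with no filter, with equal summed FPKM, with scaling by total reads, with a median of ratios over the genes tested, and with eBayes without a trend, and between 1 and 2 when single libraries were left out. The receptor lost was TNFRSF1B, whose log2 fold change lay between -0.23 and -0.06 over the alternatives (largest adjusted p 0.447) and between -0.28 and -0.16 without single libraries. The cause was not tested. TNFRSF21 ranged from -0.0539 (without sh-NC replicate 2) to 0.17 without single libraries. The pathway genes lower past both thresholds went from 3 to 1 when a fold change of 2 was itself tested. In that test the receptors higher went from 3 to 2, and the pathway genes higher from 16 to 11. The receptors higher past both thresholds were 4 with a pseudocount of 0.01 FPKM and with limma voom on recovered reads. They were 3 under the rest of the 11 alternatives. The difference of the class medians, 0.30, became 0.18 and 0.16 with pseudocounts of 0.1 and 0.01 FPKM and 0.16 with limma voom on recovered reads, and reversed to -0.57 with no filter, which adds FAS and TNFRSF10D. Scaling by total reads and by the median of ratios moved the median of all genes by 0.10 and 0.08.

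With the replicate number as a block, the numbers of receptors higher and lower stayed at 3 and 0 past both thresholds and at 5 and 2 at any size, those of pathway genes at 16 and 3, and the log2 fold change of LDB1 at -3.56. Depth limits FAS and TNFRSF10D, which rest on few reads, and 2 libraries per group limit every interval.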
